A study of Mus musculus with 72 samples.

Results

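The cells described here are 75 of the 2350 dorsal raphe Pet1 neurons profiled by droplet sequencing. They were chosen for high summed expression of Gpr101 (an orphan G protein-coupled receptor), Trpc5 (a cation channel), Ecel1 (a membrane metalloprotease), Cxcl14 (a chemokine) and Prkce (protein kinase C epsilon). Each cell was scaled to 10000, log-transformed and z-scored per gene, and the members are the cells with the highest mean z over these 5 genes among the 762 cells with at least 1 UMI of Calb2, which encodes the calcium-binding protein calretinin. A UMI is a tag that marks 1 captured RNA molecule. All other cells, 2275 in number, served as the comparison, and 687 of these also held a Calb2 UMI. The mean z was 5.88 in the highest member, 2.74 in the median member, 1.72 in the last cell inside the limit and 1.66 in the first cell outside it. The rule fixed these values, so they describe the choice and are not a result.

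Pet1 (also called Fev) is a transcription factor of serotonin neurons, the cells that make serotonin from tryptophan through Tph2 and take it back up through Slc6a4. The dorsal raphe is the main source of serotonin fibres to the forebrain, and its neurons differ in the co-transmitters, peptides and receptors that they express. Many peptides are stored with granins in dense-core vesicles, where convertases such as Pcsk2 cut the precursors into active peptides.

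The droplet libraries came from fluorescent cells of the whole dorsal raphe of adult mice. One sample was labelled En1::cre+/-;Pet1::Flpe+/-;RC::FrePe+/- and had a mean age of 59 postnatal days, and its sorted cells needed both recombinases. The other was labelled Pet1::Flpe+/-; hM3Dq+/+ and had a mean age of 65.5 postnatal days. This allele also needs Cre for hM3Dq itself, and without Cre its cells carried only the green reporter. Each sample pooled several animals, and all cells of both carried Pet1::Flpe. Cells in the deposited table are named only by a barcode with 1 of 2 endings, and no label ties an ending to a genotype. This leaves a single sample in which the endings serve as barcode set 1 and barcode set 2. There are therefore no replicates and no p-values, and the intervals (95%) cover counting error only. A second table holds 70 cells that were picked by hand from dorsal raphe subregions in 8 groups and sequenced as full-length libraries. These carried Sert::cre, Npy2r::cre, P2ry1::cre or Crh::cre together with Pet1::Flpe and RC::FrePe, at ages between 62 and 119 postnatal days, with no animal named.

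The 5 genes behaved as the rule requires and differed in how many members held them. Cxcl14 had a UMI in 71 members, at 0 CPM (UMIs per 1000000 UMIs of the cell) in the lowest, 289 CPM in the median and 839 CPM in the highest member. Trpc5 had a UMI in 65 members, Prkce in 63, Gpr101 in 56 and Ecel1 in 38. The members were thus a graded set and not one in which every cell held every gene. Without the Calb2 condition, 62 of the 75 cells with the highest mean z were the same cells. When each of the 5 genes was left out of the score in turn, between 65 and 70 of the 75 cells stayed the same.

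Of 6 serotonin neuron markers (Fev, Tph2, Slc6a4, Slc18a2, Ddc and Gch1), Fev, which the authors' cell filter used, had UMIs in all 75 members. Tph2 was at 0 in 1 member and Slc6a4 at 0 in 1 member, and 14 members held under 500 CPM of Tph2, so the label fits these members less well. The summed level of the 6 was 5365 CPM in the members and 9418 CPM in the other cells. Astrocyte markers summed to 22.8 CPM in the members and 17.3 CPM in the others, and oligodendrocyte markers to 58.5 and 63.4 CPM. Of 7 microglial markers, 6 were at 0 in the members. Of 4 dopamine neuron markers, Pitx3 and Nr4a2 were at 0, while Th had 3 UMIs and Aldh1a1 had 2 UMIs. These UMIs lay in 2 members, with up to 259 CPM in a member. The 4 markers summed to 1.90 CPM in the members and 1.40 CPM in the others. The members also held fewer UMIs, with a median of 34605 (range 15445 to 59561) against 60399 in the other cells. The median number of genes detected was 6619 against 7753, and the mitochondrial share 4.66% against 6.50%. Because of this gap in depth, many values below are also given against the 606 other cells that held 20000 to 50000 UMIs (median 38540.5), called depth-matched cells. The depth-matched cells also differed in make-up, since 102 of them (16.8%) held under 500 CPM of Tph2, against 117 (5.14%) of all other cells. Depth and make-up therefore cannot be told apart in that comparison. Some values are therefore also given with cells under 500 CPM of Tph2 left out of both groups, which compares 61 members with 504 depth-matched cells (median 40863.5 UMIs) and is called the limit on both groups.

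Both barcode sets held members. Set 1 contributed 23 of its 869 cells (2.65%, exact binomial interval 1.69 to 3.95%) and set 2 contributed 52 of its 1481 cells (3.51%, 2.63 to 4.58%). The sets shared 0 barcodes. All 23 members of set 1 held at least 3 UMIs of the female transcript Xist, and 50 of the 52 members of set 2 held at least 3 UMIs of Y-linked genes, so barcode set and sex cannot be told apart here.

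Across the 4772 genes with at least 100 UMIs observed or expected in the members, 144 genes (3.02%) were at least 2-fold higher in the members and 120 genes (2.51%) were at least 2-fold lower. Of these, 143 and 119 lay on the same side of equality in both barcode sets. Against the other Calb2 cells alone, 2.62% of the tested genes were at least 2-fold higher and 1.88% at least 2-fold lower, and 117 of the 144 genes were again at least 2-fold higher and 95 of the 120 again at least 2-fold lower. Against the depth-matched cells, 1.47% of the tested genes were at least 2-fold higher and 1.68% at least 2-fold lower, and 68 of the 144 and 72 of the 120 remained past 2-fold, and 142 and 120 kept their direction. Under the limit on both groups 2.05% of the tested genes were at least 2-fold higher and 1.98% at least 2-fold lower, among them 84 of the 144 and 74 of the 120. Genes past 2-fold against all other cells thus often lay closer to equality against the depth-matched cells, which differ in both depth and make-up.

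**Figure D1:**
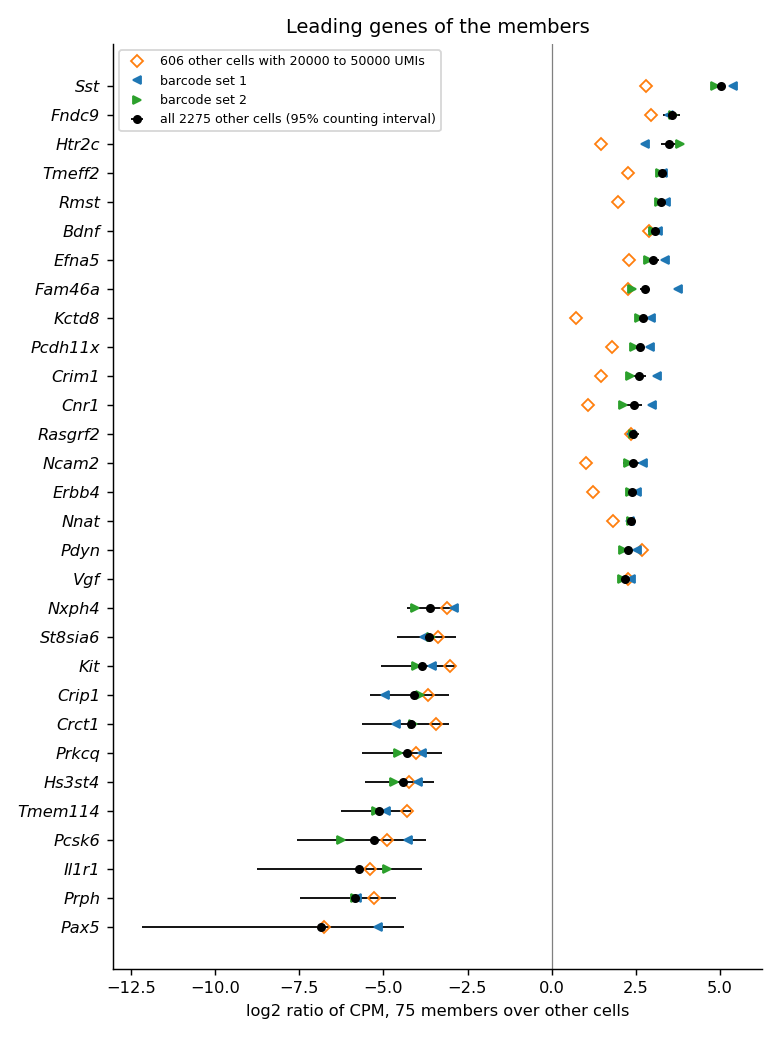
Log2 ratio of CPM (horizontal axis) between the 75 members and other cells for the 30 named genes with the largest differences (2 unnamed RIKEN transcripts are left out). Black points with bars are the ratio to all 2275 other cells with its 95% counting interval, triangles the ratio within each barcode set, and open diamonds the ratio to the 606 depth-matched cells. The higher genes lie above 0 throughout, but Kctd8, Htr2c and Sst move most toward 0 in the depth-matched comparison. Under the limit on both groups, which is not drawn, Kctd8 is at 1.95, Htr2c at 2.88 and Sst at 3.50.

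Among the 20 leading higher genes were 4 that encode secreted factors or their precursors, Sst, Bdnf, Pdyn and Vgf, and the first of these is described further on. Bdnf, the growth factor that acts on TrkB, was at 88.2 CPM in the members and 10.5 CPM in the others, a log2 ratio of 3.07 (2.87 to 3.28), and at 2.88 against depth-matched cells. It was 0 CPM in the lowest member, 28.9 CPM in the median and 581 CPM in the highest, so the groups overlapped. Vgf, a granin-family peptide precursor, was at 590 CPM against 130 CPM (log2 ratio 2.18, 2.11 to 2.26), and 2.25 against depth-matched cells. Its median per cell was 381 CPM in the members and 69.5 CPM in the others. Pdyn, the precursor of dynorphins, was at 217 CPM against 45.5 CPM (log2 ratio 2.25, 2.12 to 2.38), and 2.68 against depth-matched cells. These 3 genes kept their difference against the depth-matched cells. Of the list of peptide and growth factor precursors, 4 genes were tested (Sst, Bdnf, Pdyn and Nts), and all 4 were at least 2-fold higher, beside 3.02% of all tested genes. Sst, Bdnf and Nts reached the count minimum only through their UMIs in the members. The minimum thus favours higher genes in each setting, and nothing is read from these counts about the list. Under the minimum, Penk, Tac1, Nppc, Adcyap1 and Cartpt were higher with intervals past 2-fold, and Trh, Crh and Gal lower. Against depth-matched cells 3 of the 4 tested genes were at least 2-fold higher (1.47% of all tested genes), and Nts was at -0.57. Under the limit on both groups 3 genes were tested and all 3 were at least 2-fold higher (2.05% of all tested genes), with Sst at 3.50, Bdnf at 2.95 and Pdyn at 2.61. Nts was then under the count minimum, at 2.52 (1.34 to 3.66).

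Fndc9, a fibronectin-domain gene, had a log2 ratio of 3.56 (3.30 to 3.82), with 57.8 CPM in the members and 4.88 CPM in the others, and of 2.93 against depth-matched cells. After each cell was thinned to 20000 UMIs, 62.0% of the members and 9.66% of the others held a Fndc9 UMI. Rasgrf2, a Ras exchange factor, was at 130 CPM against 24.2 CPM, and its ratio of 2.42 was 2.36 in the depth-matched comparison. Fam46a, a non-canonical poly(A) polymerase, was at 208 CPM against 30.7 CPM, with log2 ratios of 3.75 in set 1, 2.38 in set 2 and 2.25 against depth-matched cells. Nnat, a small membrane proteolipid, was at 363 CPM against 71.4 CPM (log2 ratio 2.35, 2.25 to 2.44), and 1.81 against depth-matched cells. These genes were widespread, with a UMI in 56 members for Fndc9, 66 for Rasgrf2, 62 for Fam46a and 72 for Nnat.

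Surface molecules among the leading genes are given next. Tmeff2, a transmembrane protein with follistatin domains, was at 129 CPM against 13.4 CPM (log2 ratio 3.27, 3.09 to 3.43) and was found in 70 members. Efna5, an ephrin ligand, was at 122 CPM against 15.1 CPM (log2 ratio 3.02, 2.84 to 3.19). Pcdh11x, a protocadherin, was at 189 CPM against 30.9 CPM, and Erbb4, the neuregulin receptor, at 103 CPM against 19.8 CPM. Against depth-matched cells the log2 ratios were 2.28 for Tmeff2, 2.29 for Efna5, 1.79 for Pcdh11x and 1.24 for Erbb4. They were 2.83, 2.67, 2.03 and 1.63, in the same order, with the limit on both groups. Among the 12 tested axon guidance genes, 5 were at least 2-fold higher and 1 at least 2-fold lower, with a median log2 ratio of 0.72, beside 3.02% higher, 2.51% lower and a median of 0.04 over all tested genes. Efna5, Efnb3, Nrp2 and Sema5a reached the count minimum only through their UMIs in the members. The minimum thus favours higher genes, and nothing is read from the axon guidance counts and medians in any setting. Against depth-matched cells 4 of 13 were higher and 2 lower, with a median of 0.24, beside 1.47% higher, 1.68% lower and a median of 0.01 over all tested genes. Of 22 tested genes of synaptic adhesion and cadherins, 5 were at least 2-fold higher and 3 at least 2-fold lower, with a median of 0.14, beside 3.02% and 2.51% of all tested genes. Of the 5, Tenm3 reached the count minimum only through its UMIs in the members. Against depth-matched cells 0 of 23 were higher and 2 lower, with a median of -0.03, beside 1.47% and 1.68% of all tested genes. With the limit on both groups 2 of 20 were higher (Cbln4, a cerebellin, at 1.25 and Pcdh17, a protocadherin, at 1.07) and 3 lower, with a median of -0.0016, beside 2.05% and 1.98% of all tested genes. The axon guidance counts in that setting were 4 higher and 2 lower of 11, with a median of 0.24. Slit2, a repellent ligand, was at 174 CPM against 54.5 CPM, and its log2 ratio of 1.68 was also 1.68 against depth-matched cells. Efnb2 (20.1 against 0.93 CPM) was under the count minimum, with 53 UMIs in 32 members. Robo2, a receptor for Slit ligands, was lower in the members, at 15.6 CPM against 72.9 CPM (log2 ratio -2.23, -2.71 to -1.79), and at -1.75 against depth-matched cells.

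Receptors for serotonin, cannabinoids and peptides differed in both directions. Htr2c, a serotonin receptor coupled to Gq, was at 65.8 CPM in the members and 5.86 CPM in the others (log2 ratio 3.49, 3.24 to 3.73). Its ratio was 2.77 in set 1, 3.82 in set 2, 1.46 against depth-matched cells and 2.88 (2.51 to 3.25) under the limit on both groups. Cnr1, the cannabinoid receptor, was at 54.4 CPM against 10.0 CPM, with a log2 ratio of 2.44 against all others, 1.08 against depth-matched cells and 1.78 under the limit on both groups. Prlr, the prolactin receptor, was at 60.4 CPM against 13.7 CPM, with a log2 ratio of 2.14 against all others and 1.55 against depth-matched cells. Tacr1 (34 UMIs), Sstr1 (42 UMIs) and Htr7 (34 UMIs) were also higher, on few counts, at log2 ratios of 3.21, 3.50 and 2.41. Against depth-matched cells these were 1.31, 1.68 and 0.93, in the same order. Hcrtr1, a receptor for orexins, was at 6.46 CPM against 68.3 CPM (log2 ratio -3.40, -4.18 to -2.72), and at -2.92 against depth-matched cells. Htr1b, an inhibitory serotonin receptor, was at 20.1 CPM against 69.9 CPM (log2 ratio -1.80), and at -1.24 against depth-matched cells. Adra2c and Hrh3, receptors for noradrenaline and histamine, were at 7.98 and 6.08 CPM in the members and at 40.3 and 28.5 CPM in the others.

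The lowest genes were near absent from the members. Pax5, a paired-box transcription factor, had 1 UMI in all members, or 0.38 CPM against 43.9 CPM in the others. Prph, the intermediate filament peripherin, was at 1.90 CPM against 109 CPM (log2 ratio -5.84, -7.46 to -4.62). Tmem114 was at 3.42 CPM against 119 CPM, and Nxph4, a neurexophilin, at 7.98 CPM against 97.2 CPM. Against depth-matched cells the log2 ratios were -6.76 for Pax5, -5.27 for Prph, -4.29 for Tmem114 and -3.12 for Nxph4. Kit, the receptor for stem cell factor, and Prkcq, another protein kinase C, were at 3.04 and 2.66 CPM against 44.3 and 52.6 CPM. Among the genes at 0 UMIs in the members was Sox14, at 11.7 CPM in the other cells.

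Transcription factors and calcium-binding proteins gave named differences as well. Foxp1, a forkhead factor, was at 165 CPM in the members and 36.8 CPM in the others (log2 ratio 2.16, 2.02 to 2.31), and 2.00 against depth-matched cells. Its level per member ran from 0 CPM through a median of 150 CPM to 522 CPM, while the median of the others was 27.5 CPM. Ldb2, an adaptor of LIM-domain factors, was at 35.4 CPM against 3.84 CPM on 93 UMIs, and its log2 ratio of 3.20 was 1.41 against depth-matched cells and 2.29 under the limit on both groups. Calb1, calbindin, was at 364 CPM against 94.6 CPM (log2 ratio 1.95, 1.85 to 2.04), and 1.72 against depth-matched cells. S100a10 (133.8 against 459 CPM), of the S100 family, and Vsnl1 (314 against 741 CPM), a calcium-binding protein, were lower in the members. Their log2 ratios were -1.58 and -1.33 against depth-matched cells.

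**Figure D2:**
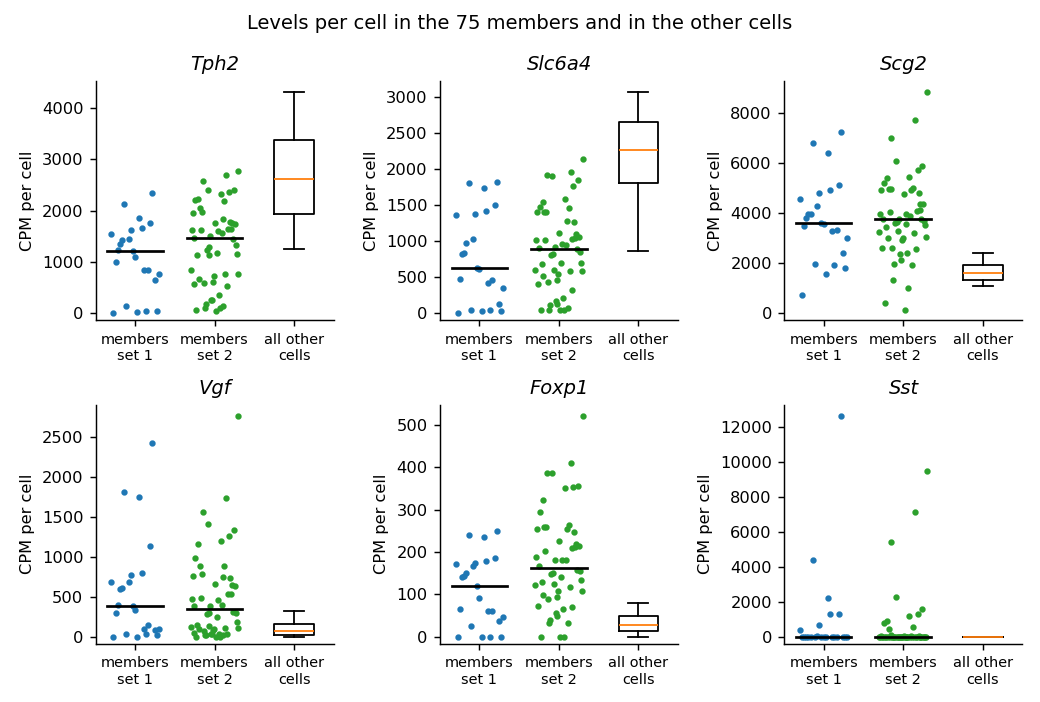
CPM per cell (vertical axis) of 6 genes in the members of each barcode set (points, with the median as a black line) and in all other cells (box from the first to the third quartile with the median, whiskers from the 10th to the 90th percentile). Tph2 and Slc6a4 sit below the box of the other cells for most members, Scg2, Vgf and Foxp1 above it, and Sst is at 0 in most members and very high in a few.

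Of 13 tested genes of serotonin synthesis, transport and breakdown, 3 (Tph2, Slc6a4 and Maob) were at least 2-fold lower and 0 at least 2-fold higher, beside 2.51% lower and 3.02% higher over all tested genes. The median log2 ratio was -0.54 in the list and 0.04 over all tested genes. Tph2, the enzyme of the first step, was at 1361 CPM in the members and 2869 CPM in the others (log2 ratio -1.08, -1.12 to -1.03). Per member it ran from 0 CPM through a median of 1331 CPM to 2779 CPM, and the median of the others was 2624 CPM, so the groups overlapped. Slc6a4, the serotonin transporter, was at 915 CPM against 2253 CPM (log2 ratio -1.30, -1.36 to -1.24), and Maob, a monoamine oxidase, at 188 CPM against 512 CPM (log2 ratio -1.44). Slc18a2, the vesicular transporter, was at 1470 CPM against 2372 CPM, and Ddc, the decarboxylase, at 920 CPM against 1102 CPM. Other genes of the list were near level, such as Slc29a4 (log2 ratio 0.15, -0.21 to 0.49), a plasma membrane monoamine transporter, and Qdpr (-0.10) and Spr (-0.12), which serve the synthesis and recycling of the cofactor tetrahydrobiopterin. The identity factor Fev was nearly level, at 314 CPM against 336 CPM (log2 ratio -0.10, -0.20 to 0.00), and of 6 tested identity factors 0 passed 2-fold in either direction. Against depth-matched cells the log2 ratio was -0.52 for Tph2, -0.83 for Slc6a4 and -1.04 for Maob, so that 1 of the 13 stayed at least 2-fold lower, beside 1.68% of all tested genes. Under the limit on both groups, which sets a floor on Tph2 itself in both groups, Tph2 was at -0.51, Slc6a4 at -0.82 and Maob at -1.12, and again 1 of 13 was at least 2-fold lower, beside 1.98% of all tested genes.

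Transmitter genes of glutamate and GABA are given next. Slc17a8, the vesicular glutamate transporter VGLUT3, was at 138 CPM in the members and 159 CPM in the others (log2 ratio -0.20, -0.35 to -0.05). After thinning, 71.8% of the members and 52.7% of the others held a Slc17a8 UMI, so the share and the summed level differed in direction and no order is read from them. Its level was 387 CPM in the 14 members under 500 CPM of Tph2 and 99.4 CPM in the other 61. The log2 ratio was -0.54 against depth-matched cells and -0.70 (-0.90 to -0.51) under the limit on both groups. Gad2, a GABA-synthesizing enzyme, was at 50.9 CPM against 115 CPM, with a log2 ratio of 0.31 in set 1, -2.30 in set 2, -0.88 against depth-matched cells and -1.44 under the limit on both groups. Its UMIs lay in 14 members, and 3 of them held 56.0% of the total. Gad1, the other enzyme, was at 11.4 CPM against 48.5 CPM, from 5 members. Slc32a1, the vesicular GABA transporter, had 22 UMIs in 2 members, so its ratio rests on those cells. Slc38a1, a glutamine transporter, had a log2 ratio of -0.25, and Slc17a6 had 2 UMIs.

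Genes of the peptide secretory pathway were among the most abundant genes with a difference. Scg2, secretogranin II, was at 4046 CPM against 1685 CPM (log2 ratio 1.26, 1.24 to 1.29), and Chgb, chromogranin B, at 2866 CPM against 1196 CPM (log2 ratio 1.26, 1.23 to 1.29). The lowest, median and highest member had 129 CPM, 3742 CPM and 8825 CPM of Scg2, and the median of the others was 1594 CPM. Scg5, a chaperone of the convertase Pcsk2, and Pcsk2 itself were at 376 and 186 CPM against 172 and 86.0 CPM. Of 11 tested genes of this list, 5 (Scg2, Chgb, Scg5, Pcsk2 and Vgf) were at least 2-fold higher and 0 at least 2-fold lower, with a median log2 ratio of 0.81, beside 3.02% higher and 2.51% lower over all tested genes. Against depth-matched cells, 2 of the 11 were at least 2-fold higher, beside 1.47% of all tested genes. Scg2 was at 1.15 and Vgf at 2.25, while Chgb was at 1.00, just under the limit, Scg5 at 0.57 and Pcsk2 at 0.69. With the limit on both groups 3 of the 11 were, beside 2.05% of all tested genes, with Scg2 at 1.21, Vgf at 2.37 and Chgb at 1.03. Immediate early genes, which neuronal activity induces, also lay closer to equality against the depth-matched cells. Of 6 tested, 5 were at least 2-fold higher against all others (Fos, Fosb, Egr1, Jun and Junb), beside 3.02% of all tested genes, and 0 against depth-matched cells, beside 1.47%, where Fos was at 0.77 and Junb at 0.13. Against all others, Fosb, Egr1 and Junb reached the count minimum only through their UMIs in the members, so nothing is read from the count of 5. With the limit on both groups 1 of 5 tested was at least 2-fold higher (2.05% of all tested genes), with Fos at 1.10 and Junb at 0.53. Without the 14 members lowest in Tph2, described further on, 2 of 5 tested were at least 2-fold higher than in all other cells, beside 2.78% of all tested genes higher and 2.33% lower in that setting.

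The promoters of 3 genes, which share a motif, are shown because these genes are the highest-ratio peptide gene and the 2 most abundant granins. The capitals mark TGACGTCA, the cyclic AMP response element, which reads the same on both strands. The stretches run from 100 bases before the start site to the base before it, in RefSeq's GRCm38.p6 build: Sst on the minus strand of chromosome 16 (chr16:23890845-23890944), Scg2 on the minus strand of chromosome 1 (chr1:79440027-79440126) and Chgb on the plus strand of chromosome 2 (chr2:132781542-132781641).
Sst: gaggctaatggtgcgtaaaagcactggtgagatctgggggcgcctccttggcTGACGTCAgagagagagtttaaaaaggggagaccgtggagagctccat
Scg2: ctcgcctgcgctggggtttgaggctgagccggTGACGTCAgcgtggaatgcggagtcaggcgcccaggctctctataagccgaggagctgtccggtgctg
Chgb: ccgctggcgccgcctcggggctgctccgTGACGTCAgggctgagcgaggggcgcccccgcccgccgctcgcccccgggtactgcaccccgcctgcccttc

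The motif starts 48 bases before the start site in Sst, 68 in Scg2 and 72 in Chgb. The Sst stretch lies inside the RefSeq gene span (chr16:23889573-23891342), so the start site used there is not the outermost end of the gene. Over all 32851 promoter windows of 300 bases it occurs in 1.79%. Among tested genes with a window it occurs in 4.55%, and among those at least 2-fold higher in the members in 6 of 109 (5.50%). Among genes at least 2-fold lower it occurs in 0 of 97. Of the listed genes with a window it occurs in 3 of 10 granin and processing genes and in 3 of 19 precursors. These are counts of letters in a window, and nothing is read from them about a factor.

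The members were not uniform. Sst, the precursor of somatostatin, had the highest ratio of all named genes, at 571 CPM against 17.4 CPM (log2 ratio 5.04, 4.94 to 5.13), but 24 of the 75 members held a UMI of it (28.2% after thinning, against 5.12% of the other cells) and 3 cells held 51.6% of its UMIs. At least 10 Sst UMIs were found in 18 members (24.0%) and in 38 of the other cells (1.67%). Against depth-matched cells the log2 ratio was 2.79, and under the limit on both groups it was 3.50 (3.27 to 3.73). With low-Tph2 cells left out of the members alone, which leaves them in the depth-matched cells, it was 0.97 (0.80 to 1.13). Tph2 varied alongside. A limit of 500 CPM, chosen after the values were seen, left 14 members below it and 61 at or above it, with 3 members between 400 and 600 CPM. The members below were 5 of set 1 and 9 of set 2, and 9 of the 18 cells with 10 Sst UMIs lay among them.

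**Figure D3:**
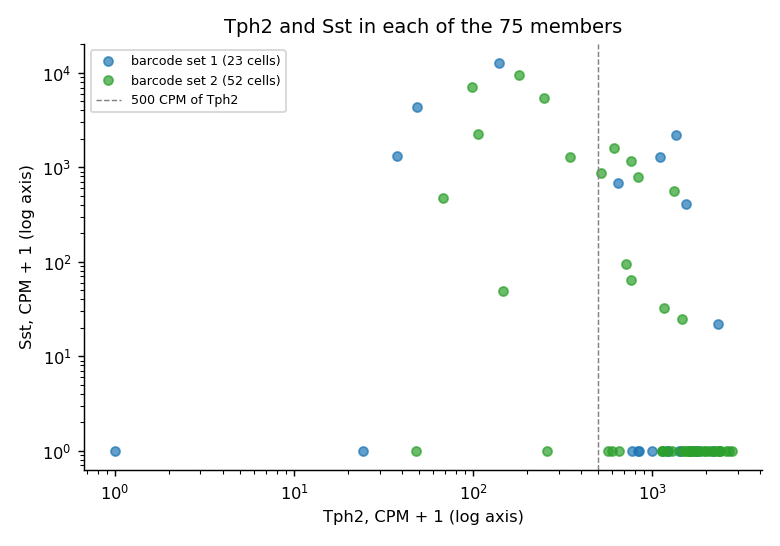
Tph2 (horizontal) and Sst (vertical) in each of the 75 members, both as CPM + 1 on log axes, with the barcode set by colour. The dashed line marks 500 CPM of Tph2. Most members at or above the line lie at 0 for Sst, and the highest Sst levels lie below it.

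The 14 members under the limit differed from the 61 others in more than Tph2, and the genes given here were chosen after their values were seen. They held Sst at 3180 CPM against 162 CPM and Tcf4 (a basic helix-loop-helix factor) at 435 against 28.1 CPM, with a Tcf4 UMI in all 14. Penk (the enkephalin precursor) was at 241 against 3.52 CPM, but its UMIs lay in 5 of the 14, and over all members 1 cell held 43.6% and 3 cells 87.2% of them. Nfix (a nuclear factor I member) was at 154 against 2.20 CPM, with UMIs in 8 of the 14, and 1 cell held 38.3% of the members' UMIs. Nts, the neurotensin precursor, was at 261 CPM against 5.28 CPM, but 1 cell held 83.8% of the members' UMIs. Calb1 was at 11.2 CPM against 419 CPM, Dlk1 at 61.7 against 792 CPM, Bdnf at 8.42 against 101 CPM and Slc6a4 at 70.2 against 1048 CPM. The median depth was 24687.5 UMIs under the limit and 35410 UMIs above it. With those 14 members left out, 114 of the 144 higher genes remained at least 2-fold higher. Fndc9 was then at 3.71, Bdnf at 3.27, Foxp1 at 2.26 and Sst at 3.22, while Tcf4 was at -0.42 and Penk, on 8 UMIs, at -0.46 (-1.67 to 0.53).

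The members were close to each other in overall expression. In a space of 30 components from 2000 variable genes that excluded the 5 genes and Calb2, 63.7% of the 20 nearest neighbours of a member were members, against 1.30% for the other cells and 3.19% of all cells. At least 10 of the 20 neighbours were members for 57 of the 75, and 1 member had none. Of a member's neighbours that were members, 79.6% on average lay in the same barcode set, while 56.9% of a member's fellow members did. Members under 500 CPM of Tph2 had members as 38.9% of their neighbours, and the others 69.4%. The remainder of the first group's neighbours included 32.5% that were cells high in Nfib, Nppc and Bmp3, against 0% for the second. Those were the 70 cells outside the members with the highest score on these 3 genes, 5 further cells being shared. The 57 cells high in Tmeff2, Adcy2 and Nrp2, of whose 75 cells 18 were members, made up 15.4% of the neighbours of the second group.

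**Figure D4:**
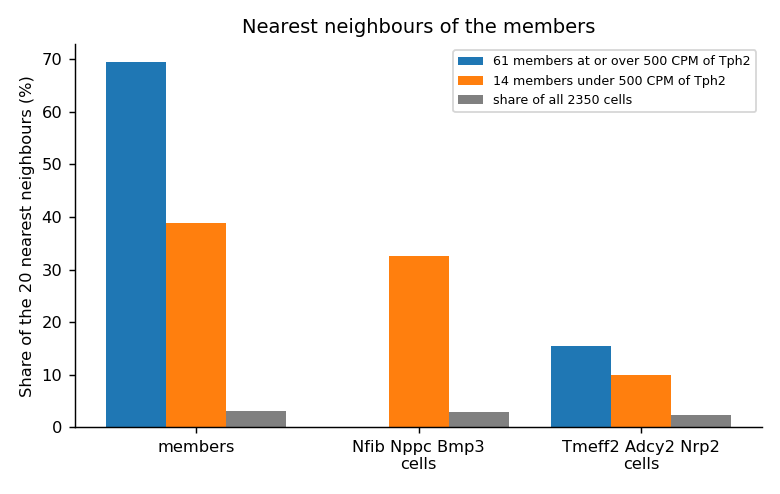
Share of the 20 nearest neighbours (vertical axis, in percent) that are members, Nfib Nppc Bmp3 cells or Tmeff2 Adcy2 Nrp2 cells, for members at or over and under 500 CPM of Tph2, beside the share of these groups in all 2350 cells. Members make up the tallest bars in both classes, and Nfib Nppc Bmp3 cells are 32.5% of neighbours under the limit and 0% at or over it.

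The members differed from these 2 groups in named genes. Relative to the Tmeff2 Adcy2 Nrp2 cells, Bdnf was at a log2 ratio of 2.38 (1.91 to 2.89), Pdyn at 1.98 (1.71 to 2.26) and Ldb2 at 2.10 (1.40 to 2.86), whereas Foxp1 (0.12, -0.08 to 0.32) was level. Relative to the Nfib Nppc Bmp3 cells, Pdyn was at 5.85 (4.80 to 7.17), Calb1 at 4.16 and Tph2 at 2.57 (2.43 to 2.72), whereas Kctd8 was at -1.91 and Htr2c at -1.04. Ldb2 (-0.60, -1.02 to -0.18), Cnr1 (-0.68, -1.02 to -0.35), Erbb4 (-0.48) and Tacr1 (-1.54) were also lower than in those cells. Bdnf (3.66), Fndc9 (2.58) and Tmeff2 (1.36) were higher than in them. Sst was near level with those cells, at 0.27 (0.15 to 0.39). All of these groups were chosen by measured genes, and the intervals cover counting error only.

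Among the 70 manually sorted cells, which the rule did not use, 1 cell stood out on the 5 genes. It was replicate 10 of the caudal group labelled by Npy2r::cre and Pet1::Flpe, taken at postnatal day 87, with 5245358 reads. Its mean z over the 5 genes was 3.54, and the next cell had 1.47. It held reads of Gpr101 (112 CPM, here reads per 1000000 reads), Cxcl14 (154 CPM) and Prkce (56.4 CPM), and none of Trpc5 or Ecel1. Of the leading higher genes, 16 are in that table. The cell had the highest mean z over them of all 70 cells (1.68), with reads of 11 of the 16, and was highest for Bdnf (70.7 CPM), Kctd8 (211 CPM) and Cnr1 (116 CPM). Sst and Htr2c were at 0 reads in it. All 12 leading lower genes were at 0 reads there, but this was not particular to the cell. Its mean z over them was -0.833, the lowest P2ry1 cell had -0.832, and the medians were -0.60 in the caudal Npy2r group, -0.59 in the P2ry1 group and -0.39 in the caudal Sert group. The median score over the 16 genes was 0.22 in the 10 caudal Npy2r cells and 0.18 in the 9 rostral Npy2r cells, and between -0.28 and -0.00079 in the other groups. In the caudal Npy2r group the score ran from -0.21 to 0.024 at day 77 and from 0.049 to 1.68 at day 87. Whether age matters was not tested. No group names its animals, so these are values of cells and the groups were not tested against each other.

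**Figure D5:**
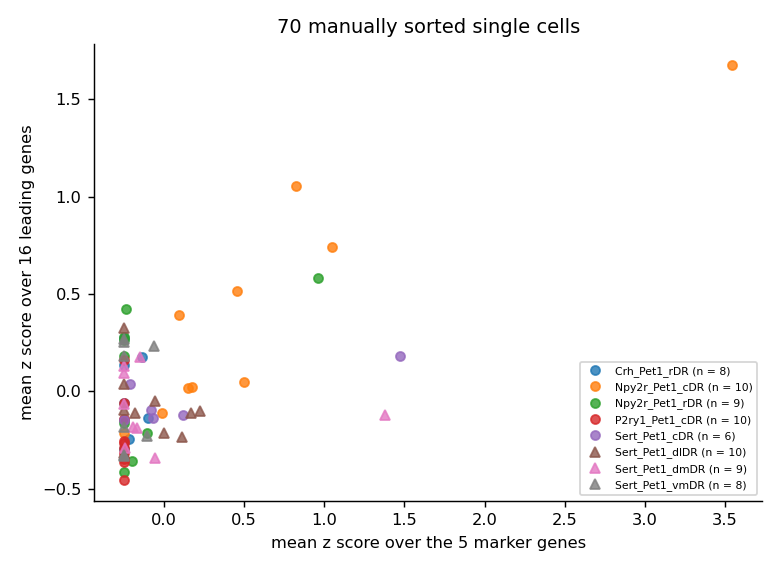
Mean z score over the 5 genes of the rule (horizontal axis) and over 16 leading higher genes (vertical axis) in 70 manually sorted cells, coloured by group. One caudal Npy2r cell lies at 3.54 and 1.68, and the cells next highest on the vertical axis are also mostly caudal Npy2r cells.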

How the data were processed

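Single Pet1 neurons were measured by droplet (3' UMI) and manual full-length sequencing. The authors mapped reads to mm10 (per the labels, Cell Ranger 3.0.2, STAR 2.5.4 and R 3.5.3) and deposited unnormalized counts: UMI counts of 17231 genes in 2350 cells, already filtered by the authors, and read counts of 70 cells. CPM was computed from these counts as the UMIs summed over cells, per 1000000. Genes with at least 100 UMIs observed or expected in the members were compared, and a ratio of at least 2 was called. Ratio intervals are exact conditional (95%), shares have exact binomial intervals, and a seeded thinning to 20000 UMIs was used for shares of cells. Neighbours used log values per 10000. Scrublet called 14 cells doublets, 0 of them members, so it is a weak check. Code was tested on simulated data. Python 3.11.15, numpy 2.4.6, scipy 1.17.1 and scanpy 1.11.5 were used. Named genes were the 20 highest and 12 lowest ratios seen in at least 25% of the cells of the higher group and on the same side in both barcode sets, list genes past 2-fold, and serotonin and transmitter genes. Some genes of these lists are not reported here. Members, lists and named genes were chosen with earlier results of these data known. Alternatives are given in the closing section. Sequences are from RefSeq. The depth per member was 15445 to 59561 UMIs.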

Additional observations from a re-analysis of the deposited data

Results flagged for a closer look

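In the manually sorted cells, 4 cells lay past Dixon's 95% limit for their group on the mean z over the 5 genes: caudal Npy2r replicate 10 (3.54), rostral Npy2r replicate 6 (0.96), caudal Sert replicate 1 (1.47) and dorsomedial Sert replicate 2 (1.38). Cells are not replicates, and in these groups many cells tie at the lowest score because they hold no reads of the genes. The usual rate of about 1 such cell in 20 groups therefore does not hold, and nothing is read from these flags. No named gene had opposite signs in both barcode sets with intervals clear of 0.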

How the results depend on the processing

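The counts of genes at least 2-fold higher (144) and lower (120) moved by over 1.5 times under few settings. They were 76 and 73 when each cell was thinned to 20000 UMIs, 54 and 43 in barcode ending 1 alone, 474 and 348 at a count minimum of 20, and 37 and 24 at a count minimum of 500. Each of these settings also changes how many genes are tested. Against only the other cells with 20000 to 50000 UMIs, a setting added after the data were seen, 70 genes were higher, and with members under 500 CPM of Tph2 also left out (a limit on members alone, likewise added) the counts were 69 and 77. With cells under that limit left out of both groups (the limit on both groups, added last) 88 genes were higher. Under the remaining settings (other Calb2 cells, CPM averaged per cell, 50 or 100 cells, no Calb2 condition, barcode ending 2, each gene left out, doublets left out, mitochondrial and ribosomal genes left out, and members under 500 CPM of Tph2 left out) both counts stayed within 1.5 times. Members made up 67.7% of the nearest 10 neighbours and 63.7% of the nearest 20. Of the 170 named genes past 2-fold, 25 turned sign under some setting. For 4 of these (Grp, Crhr1, Htr2a and Grin2d) the interval already spanned 0 on at most 3 UMIs, and their values under other settings reached -0.93, -0.23, -0.23 and -0.58. The others were Gad2 in barcode ending 1 (0.31), Pou3f1 against the other Calb2 cells (-0.12), Galr1 with Prkce left out of the score (-1.15), and Nfix and Oprk1 in barcode ending 2 (-0.51 and -0.88). Nts turned in the 50 highest cells (-0.54), in ending 1 (-0.17) and with Gpr101 left out (-1.04). Against depth-matched cells the sign turned for Nts (-0.57), Nfix (-0.32), Gria3 (-0.53), Grik3 (-0.71), Oprk1 (-0.088) and Galr1 (-0.93). Without members under 500 CPM of Tph2 it turned for Tcf4 (-0.42), Nts (-1.18), Nfix (-2.37), Nfib (-3.55), Penk (-0.46) and Oprk1 (-0.39). Under the limit on members alone, where low-Tph2 cells stay among the depth-matched cells, it turned for Junb (-0.011), Tcf4 (-1.16), Id2 (-0.13), Nts (-3.49), Nfix (-3.69), Nfib (-5.36), Penk (-2.53), Gria3 (-1.55), Epha4 (-1.41), Chrna4 (-0.63), Hpca (-1.04), Nppc (-0.45), Grik3 (-1.50), Oprk1 (-1.75), Sstr2 (-0.16), Insm1 (-0.74), Cxcr4 (-0.65) and Trpc4 (-0.31). Under the limit on both groups it turned for Tcf4 (-0.18), Nfix (-2.76), Nfib (-3.54), Gria3 (-0.46), Grik3 (-0.021), Oprk1 (-0.48) and Insm1 (-0.35). The cause was not tested. No paired analysis was possible because no result comes from a test between replicated groups. Depth limits genes with few UMIs in the members.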
